A study of Mus musculus with 2 samples.

Results

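The genes described here are the integrin chains and the core of the focal adhesion: 24 alpha and beta chains and 12 cytoplasmic proteins (talins, kindlins, ILK, PINCH1, parvins, paxillin and vinculin), 36 listed genes in all. Every probe set that the platform annotation assigns to exactly 1 gene was taken where that gene was on the list, whatever its values. This gave 83 probe sets of 34 genes, out of 18193 genes named by such probe sets. Fermt1 (kindlin-1) and Itga11 had none and were not analysed here. RNA came from whole liver of mouse embryos at E14.5, on a mixed NMRI/C57Bl6 background. One sample was wild-type. The other was Prox1 f/f;Foxa3Cre: Cre driven by Foxa3, active in the endoderm that forms gut and liver, recombines the floxed gene of the homeodomain factor Prox1. The comparison asks how gene expression of the fetal liver differs when Prox1 is deleted from its epithelial lineage. The labels give no Cre-carrying control, and they do not say how many embryos each sample held. With 1 array per genotype there were no replicates, so no test between genotypes was possible, and each difference below is between these 2 samples.

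Integrins are cell surface receptors made of an alpha and a beta chain. The pair decides which ligand is bound: collagens, laminins, proteins with an RGD sequence such as fibronectin, or receptors on other cells. Inside the cell, talin and kindlin bind the beta chain's tail, and vinculin, paxillin and the complex of ILK, PINCH and parvin link it to actin. Fetal liver is a blood-forming organ, so its integrins are shared out among epithelial, mesenchymal, endothelial and blood cells. In whole-organ RNA, fewer cells of a type and less RNA per cell cannot be told apart.

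Promoter sequence was examined first, because SRF, a transcription factor of actin and adhesion genes, binds a known DNA element, the CArG box. The RefSeq promoter table (GRCm38.p6) held 32 entries for 26 of the listed genes. In the 250 bases before the start site, on both strands, a CArG box stood in 3 of these entries, those of Vcl, Fermt2 and Itgb6, against 1.47% of all 32851 promoters. The AP-1 motif TGAGTCA stood in 1 (Itgax; 4.46% of all promoters) and the ETS motif GGAAGT in 10 (19.7%). None of these motifs is contained in another, and a match describes sequence, not binding. The promoters of 3 genes are shown because their genes carry results below: Itga8, and Vcl and Fermt2, linkers in the cytoplasm with a CArG box. Itga8 had the largest difference measured on both arrays when each listed gene is described by its probe set of highest mean log2 signal. Single probe sets of Itga4 differed more. Capitals mark the CArG box, which begins 227 bases before the start in Vcl and 204 bases before it in Fermt2. No capitals appear for Itga8, where none was found.
Itga8 (chr2:12301945-12302194, minus strand): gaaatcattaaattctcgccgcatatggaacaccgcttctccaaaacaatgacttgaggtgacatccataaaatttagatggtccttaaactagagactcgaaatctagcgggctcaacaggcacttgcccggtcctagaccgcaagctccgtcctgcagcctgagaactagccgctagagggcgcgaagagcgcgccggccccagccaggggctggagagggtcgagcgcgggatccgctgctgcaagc
Vcl (chr14:20929148-20929397, plus strand): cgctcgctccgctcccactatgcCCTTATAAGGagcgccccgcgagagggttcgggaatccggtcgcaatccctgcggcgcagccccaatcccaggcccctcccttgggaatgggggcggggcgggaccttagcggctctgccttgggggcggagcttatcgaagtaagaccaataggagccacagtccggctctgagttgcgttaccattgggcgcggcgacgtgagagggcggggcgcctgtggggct
Fermt2 (chr14:45530066-45530315, minus strand): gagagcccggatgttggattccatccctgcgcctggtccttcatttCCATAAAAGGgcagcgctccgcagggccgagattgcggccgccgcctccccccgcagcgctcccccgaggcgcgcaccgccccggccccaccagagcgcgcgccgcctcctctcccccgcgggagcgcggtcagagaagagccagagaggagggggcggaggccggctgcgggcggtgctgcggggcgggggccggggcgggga

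Values are MAS5 signals on a linear scale. A common floor of 112.6 signal units, the higher of the arrays' medians, was applied before taking log2, and each gene is described by whichever of its probe sets had the highest mean log2 signal. Differences are knockout minus wild type on the log2 scale. A gene below the floor on 1 array gives only a bound, written "at least". Genes whose arrays differed 2-fold or more, bounds included, are called higher or lower. Prox1 read 340.3 on the wild-type array against 221.8 (log2 difference -0.62), and its other probe sets were also lower (bounds of -0.87 and -0.64). The position of the Prox1 probes relative to the deleted exons was not analysed here. Both arrays had a 2% trimmed mean of 500.0, and the median log2 difference of 11397 genes measured on at least 1 array was 0.03. Hepatocyte and hepatoblast markers, the defining genes of the labelled tissue, were measured in 20 of 21 cases. The arrays also differed in sex-linked genes: Xist read 11467 and 365.7, and Eif2s3y 0.87 and 1972, in wild type and knockout. The part of this difference in any result below was not tested.

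Most of the adhesion genes had a difference above 0, and 3 of them, all integrin chains, passed 2-fold. Of 34 genes with a probe set, 26 were measured on at least 1 array. Itga8, Itgb3 and Itga6 were called higher, 0 were called lower, and 23 lay between. Over all measured genes 3.27% were called higher and 2.13% lower. The median log2 difference of the 26 genes was 0.32, and 22 of them (84.6%) were above 0, against 53.8% of all measured genes. Counted by probe set, 57 of 83 were above the floor on at least 1 array, of which 5 were called higher (2.69% of all measured probe sets with 1 gene) and 2 lower (1.76%). The 2 lower probe sets both belonged to Itga4, which the count by gene leaves out.

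**Figure D1:**
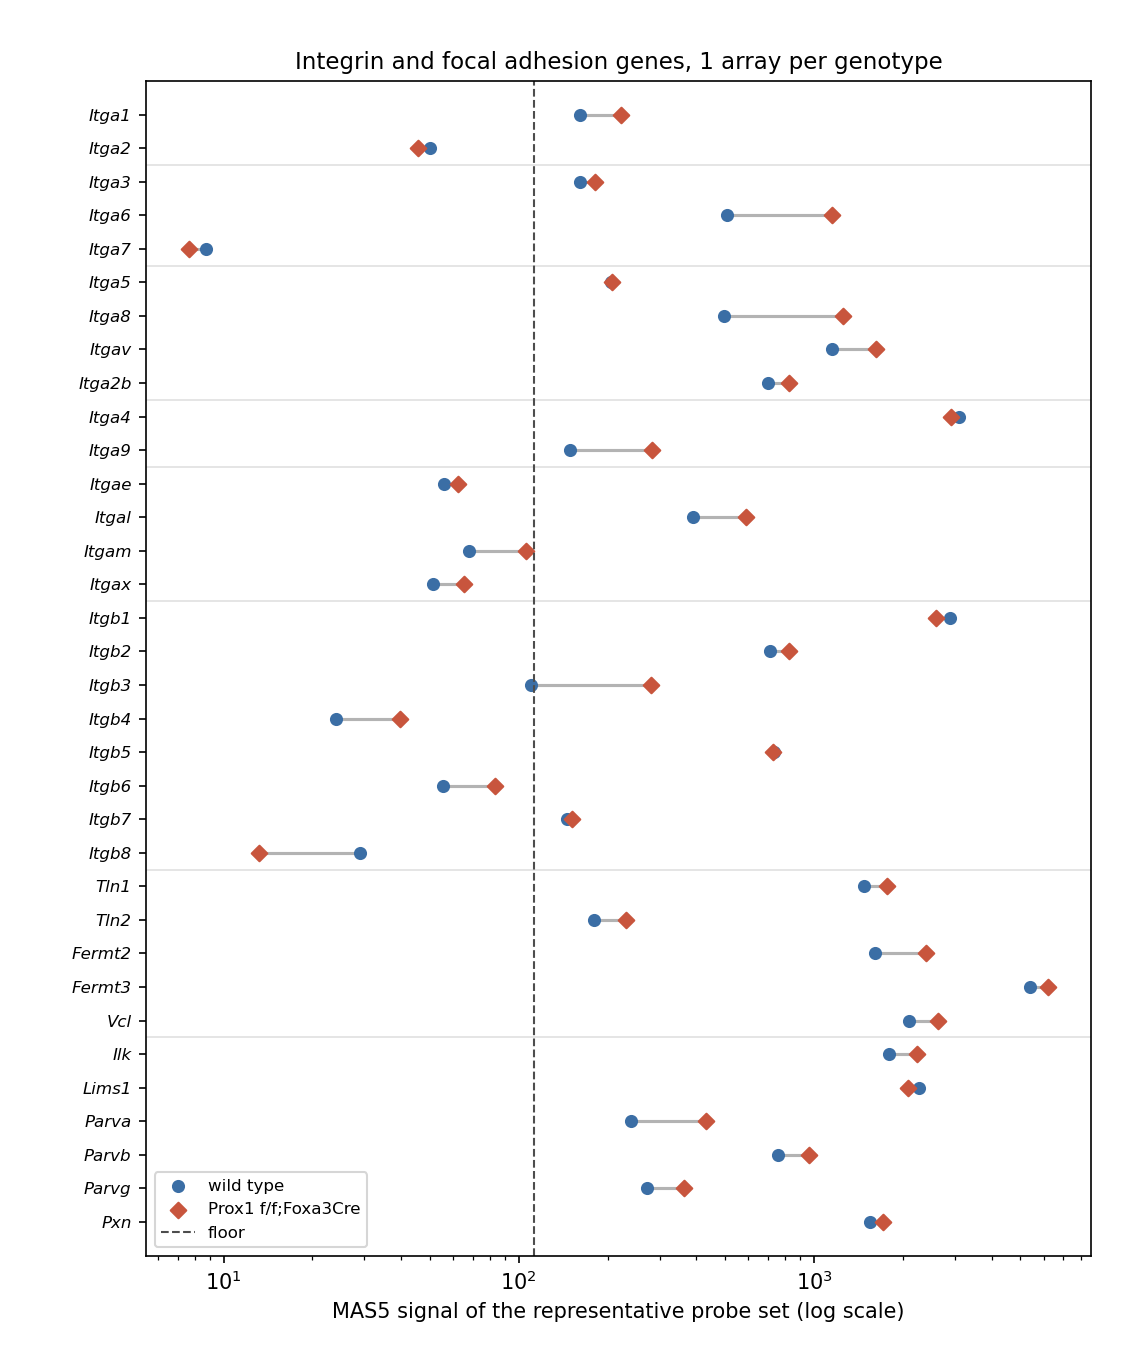
MAS5 signal of the representative probe set (log axis) of each of 34 integrin and focal adhesion genes on the wild-type array (circles) and the Prox1 f/f;Foxa3Cre array (diamonds), with the floor of 112.6 as a dashed line and grey rules between functional groups. Itga8, Itga6 and Itgb3 show the widest gaps among genes above the floor, and 8 genes lie left of the floor on both arrays.

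Among alpha chains that bind laminin, Itga6 stood apart. Itga6, which pairs with beta-1 or beta-4 and is found on progenitor, biliary, endothelial and megakaryocytic cells, went from 508.9 in wild type to 1155. Its difference was 1.18, or 2.27-fold, and a second probe set gave 351.4 and 793.3, a difference of 1.17. The probe sets of Itga6 thus differed from each other by only 0.0078. Among genes with a mean signal of 250 to 1000 the middle 95% of differences ran from -1.01 to 1.12, and Itga6 lay outside it. Itga3, the other measured laminin-binding chain, read 161.5 and 181.2, a difference of 0.17, with a bound of 0.29 on another probe set. Itga7, a chain of muscle, stayed under the floor at 8.72 and 7.65, and smooth muscle and muscle markers had 6 of 18 measured, 0 called in either direction and a median of 0.16. All 7 measured laminin chains, from the ligands of Itga6, were above 0, with a median of 0.58 and 2 called higher. Of these 7, 4 were below the floor in wild type, so being measured at all fixed their direction as above 0. Lamb1, shared by many laminins of early tissues, went from 218.8 to 1260 (5.76-fold higher). Another Lamb1 probe set read 154.3 and 380.3, a difference of only 1.30. A further one gave a bound of 0.93, and the last was below the floor. Lama1 read 61.0 and 311.1, at least 2.76-fold higher. Lamb2, Lama3 and Lamb3 were also below the floor in wild type; Lamb2 had a bound of 0.58 and the others were hardly above the floor in the knockout, at 115.1 and 114.5.

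Among alpha chains that bind RGD proteins, Itga8 had the largest difference. Itga8, the partner of beta-1 on mesenchymal cells such as hepatic stellate cells, went from 496.9 to 1255. It was 2.53-fold higher, a difference of 1.34. Its second probe set read 123.8 and 327.8, a difference of 1.40. Itga8 ranked 109th from the top of 10221 genes measured on both arrays, and it too lay outside the middle 95% for its signal. Nephronectin (Npnt), a matrix ligand of the alpha-8 chain, read 121.5 and 220.5, a difference of 0.86, and its 4 other probe sets did not reach the floor on either array. Markers of hepatic mesenchyme and stellate cells were also mostly above 0: 28 of 29 were measured, 11 were called higher and 0 lower, and the median was 0.91. Of these 28 markers, 24 were above 0 and 4 below, the lowest at a bound of -0.64. Being below the floor on 1 array fixed the direction of 3 of them as above 0 and of 1 as below. The summed signal of the 28 markers was 26106 in wild type and 51823 in the knockout. Col1a1 (3.96-fold), Cdh11 (3.25-fold), Hand2 (3.24-fold) and Pdgfrb (3.22-fold) led that list, while Des, an intermediate filament gene of stellate cells, read 153.6 and 151.1. Mesothelial markers, from the cells that cover the liver, had 10 of 13 measured, 2 called higher (Krt19 and Tcf21) and a median of 0.43. Of these 10, 7 were above 0 and 3 below. Krt19 is also on the cholangiocyte list. It was among 3 mesothelial markers above the floor only in the knockout, which fixed their direction as above 0. The part of mesenchymal or mesothelial cells in the Itga8 difference was not tested.

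The remaining RGD-binding chains differed less. Itgav, which pairs with several beta chains and binds vitronectin and latent TGF-beta, read 1155 and 1626, a difference of 0.49, and a second probe set gave 0.59. Itga5, the fibronectin receptor chain, read 204.7 and 206.4 and was nearly equal on the arrays (0.01, and below 0 after quantile normalization or lowess correction). Fibronectin (Fn1) itself had a difference of 0.46, from 5464 to 7496, with 0.45 on its other probe set. Vitronectin (Vtn), a plasma protein of hepatocytes, went the other way, from 11756 to 6845, a difference of -0.78.

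The 2 largest differences of any listed probe set measured on both arrays belonged to Itga4. They were downward, and the Itga4 probe sets disagreed in size. The alpha-4 chain pairs with beta-1 or beta-7 and binds VCAM-1 and fibronectin, and blood progenitors and erythroblasts carry it. One probe set went from 4184 to 549.4, a difference of -2.93, or 7.62-fold lower. Another read 793.4 and 282.1 (-1.49), and another 628.0 and 322.2 (-0.96). The probe set that describes the gene here, because its mean log2 signal is highest, read 3102 and 2912 and was nearly equal (-0.09). The last stayed under the floor at 35.9 and 13.4. The 4 measured Itga4 probe sets thus agreed in direction but spanned 2.84 on the log2 scale. Among 4593 genes with more than 1 probe set measured on both arrays, this span ranked 2 from the widest; the median span was 0.31 and the 95th percentile 0.97. None of the measured Itga4 probe sets is of the kinds (_s_at, _x_at) that share probes with other transcripts. Which parts of the transcript they read was not analysed here. In the RefSeq gene table (GRCm38.p6) the span of Cerkl overlaps that of Itga4, and the probe set of Cerkl did not reach the floor, at 11.2 and 2.21. As the median of its 4 measured probe sets, Itga4 had a difference of -1.23 and would be the only listed gene called lower.

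**Figure D2:**
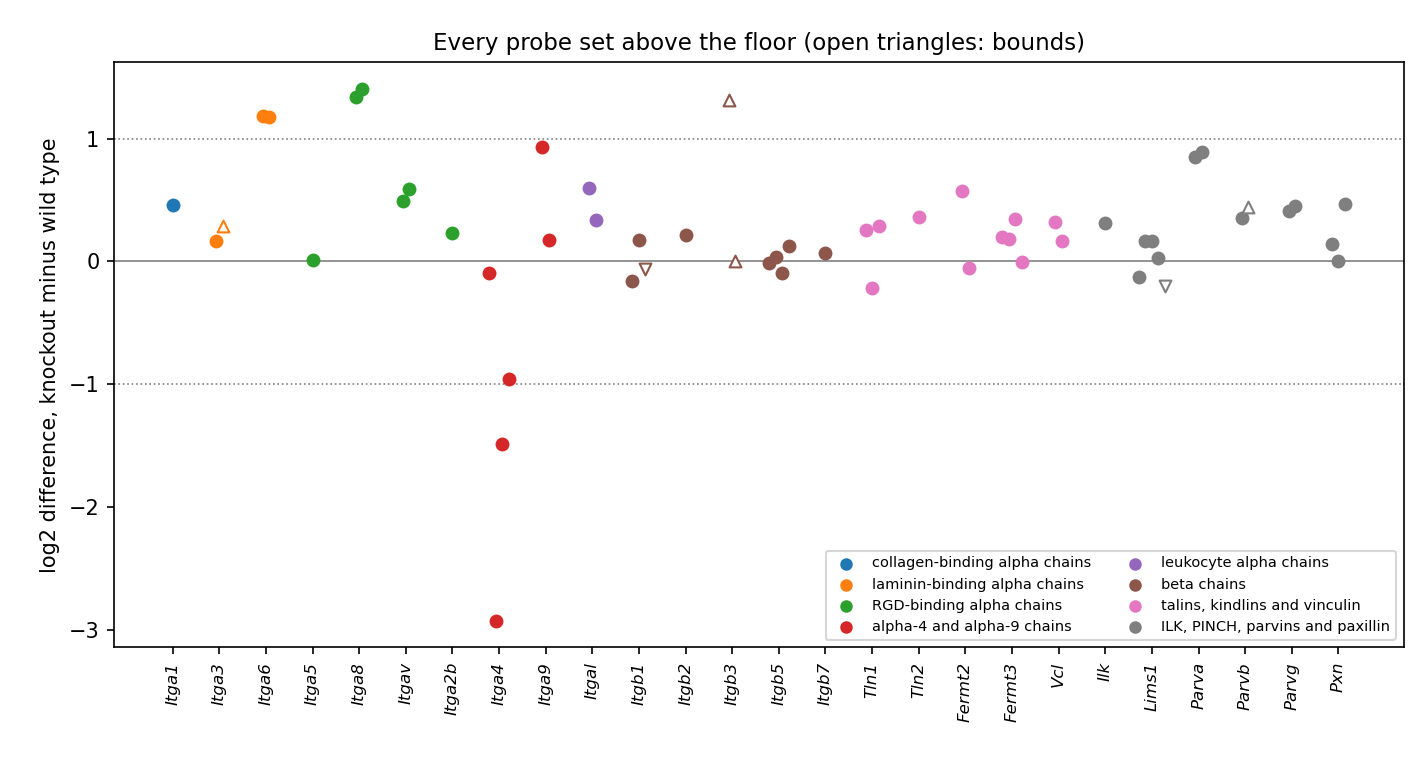
Log2 difference (knockout minus wild type) of each of the 57 probe sets above the floor on at least 1 array, by gene and coloured by functional group; filled circles were above the floor on both arrays, open triangles are bounds, and dotted lines mark 2-fold. The Itga6 and Itga8 probe sets lie together above the upper line, and those of Itga4 spread from -0.09 to -2.93.

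The ligands of the alpha-4 chain named above differed in direction. Fibronectin (Fn1) was higher, at 0.46 and 0.45 on its probe sets, and VCAM-1 was lower. VCAM-1 (Vcam1), the alpha-4 ligand on stromal and endothelial cells and on the macrophages of erythroblastic islands, went from 2896 to 1574 (-0.88). The other Vcam1 probe sets gave -0.67 and -0.24, so all 3 were lower. Erythroid markers had a median of -0.11 over 19 measured genes, with 0 called in either direction and a summed signal of 225870 and 211877. Tfrc (1.49-fold lower) was the farthest of them. Itga9, the closest relative of the alpha-4 chain, differed upward: it read 148.9 and 283.4, a difference of 0.93 (0.57 with the floor at the 60th percentile), while another Itga9 probe set read 125.5 and 141.9 (0.18) and the last was below the floor.

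Of the listed genes typical of platelets and leukocytes, 8 were measured, 7 were above 0, with a median of 0.22, and 1, Itgb3, was called higher. Itgb3, which with Itga2b makes the fibrinogen receptor of platelets and with Itgav a receptor of endothelium, went from 110.4, just under the floor, to 280.1. It was at least 2.49-fold higher, a bound of 1.31. Its second probe set read 17.5 and 113.0, at the floor in the knockout, and gave a bound of 0.0048. With the floor at the 60th percentile the Itgb3 bound was 0.56, under 2-fold, and taking the median of both probe sets it was 0.66. Itga2b (CD41), the platelet partner, read 699.6 and 821.7, a difference of only 0.23. Megakaryocyte and platelet markers outside the integrins had 19 measured of 21 with a probe set, 0 called higher, 1 lower and a median of 0.33, and their summed signal was 30999 and 34682. Gp6 was at least 1.999-fold higher and Gp1bb 1.63-fold, whereas coagulation factor V (F5), also made by hepatocytes, was 2.28-fold lower. Fibrinogen, the plasma ligand of the platelet receptor, was lower in all 3 chains, with differences of -1.12 for Fga, -1.56 for Fgb and -0.89 for Fgg.

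Of the leukocyte alpha chains only Itgal was measured. Itgal, the alpha chain of LFA-1, read 388.8 and 589.3, a difference of 0.60, and a second probe set gave 0.33. Its beta partner Itgb2, common to leukocyte integrins, read 711.3 and 823.2, a difference of 0.21. Itgam (the alpha chain of Mac-1 on myeloid cells) read 67.9 and 106.1, Itgax (dendritic cells and macrophages) 51.0 and 65.4, and Itgae, which binds E-cadherin, 55.8 and 62.2, so none of these reached the floor. Beside these chains, all 21 measured granulocyte markers were above 0, 7 were called higher, their median was 0.93, and their summed signal was 38985 and 80695. Of these 21 markers, 4 were below the floor in wild type and were measured only through the knockout array, which fixed their direction. Fcnb (3.49-fold), Chil3 (2.95-fold), S100a9 (2.65-fold) and Ms4a3 (2.53-fold) led them. Macrophage and monocyte markers had a median of 0.26 over 22 measured genes, with Marco the 1 gene called higher (2.71-fold). They did not share a direction: 17 were above 0 and 5 below, with differences from -0.75 to 1.44. Lymphoid markers were mostly below the floor, with 7 of 20 measured, 6 above 0 and 1 below. Of these 7, 3 were above the floor only in the knockout. The largest differences were those of Ptprc (1.88-fold higher), which is not restricted to lymphoid cells, and Blnk (1.53-fold). The T cell gene Cd3e was below the floor at 18.9 and 20.3. Itgb7, the beta chain of gut-homing lymphocytes, read 145.3 and 152.0, a difference of 0.06 that was below 0 after quantile normalization or lowess correction. Mast cell markers, another population that carries beta-7, had 5 of 13 measured and a median of 0.23. The part of any of these cell types in the differences was not tested.

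The widely shared beta chains were close to equal. Itgb1, the partner of most alpha chains, read 2895 and 2594, a difference of -0.16, while a second probe set read 922.1 and 1041 (0.17), so its direction is not settled by these probe sets. Itgb5, a partner of Itgav, read 731.3 and 725.7 (-0.01), and its 4 probe sets lay between -0.10 and 0.13. Itga1, a collagen-binding chain of mesenchymal and sinusoidal cells, read 161.7 and 222.2, a difference of 0.46; the gene Pelo lies within its span in the RefSeq table, and Pelo was lower, at 926.0 and 583.0. Itga2, the other collagen-binding chain with a probe set, was below the floor at 50.002 and 45.4. All 10 measured collagens of the ligand list were above 0, 6 of them called higher, with a median of 1.43.

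The beta chains found mainly on epithelia did not reach the floor. Itgb4, the beta-4 chain of hemidesmosomes and bile ducts, read 24.1 and 39.6. Itgb6, an epithelial partner of Itgav, read 55.3 and 83.1, and Itgb8, which also pairs with Itgav, 29.1 and 13.2. Values below the floor have no order, so no direction is given for these genes. Of 15 measured cholangiocyte markers 5 were called higher, 14 were above 0 and 1 below, and their median was 0.43. Of these 15, 6 were below the floor in wild type and were measured only through the knockout array, which fixed their direction. A further 7 were below the floor on both arrays. Sox4 was 2.69-fold higher, and Cldn6 (at least 5.67-fold higher), Cldn7 (at least 6.34-fold) and Krt19 (at least 8.72-fold) were each below the floor in wild type. Hepatocyte and hepatoblast markers had a median of -0.35, with 7 of 20 called lower, among them Ahsg (13.2-fold), Apoh (6.07-fold), Cps1 (6.03-fold) and Fgb (2.94-fold).

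RNA of the cytoplasmic adhesion proteins differed by less than 2-fold in all 11 genes with a probe set. On the probe sets that describe them 10 were above 0 and the median was 0.32, while single probe sets of Lims1, Fermt2, Fermt3 and Tln1 were below 0. Parva (alpha-parvin), the widespread actin-binding partner of ILK, differed most, from 240.1 to 432.0, a difference of 0.85, with 0.89 on its other probe set. Parvb (beta-parvin) read 757.0 and 965.1 (0.35), and Parvg (gamma-parvin), the blood cell form, 272.1 and 362.3 (0.41, and 0.45 on its other probe set). Ilk, the pseudokinase scaffold of the complex, read 1791 and 2228, a difference of 0.32. Lims1 (PINCH1), its LIM domain partner, read 2271 and 2075 (-0.13), but its other probe sets gave values from 0.02 to 0.17 and a bound of -0.20. Paxillin (Pxn), the adaptor of focal adhesions, read 1553 and 1713, a difference of 0.14, on a probe set of the _s_at kind. Its other probe sets gave 0.0026 and 0.47.

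The 5 measured kindlins, talins and vinculin were all above 0, from 0.20 to 0.58, on the probe sets that describe them. Fermt2 (kindlin-2), the form of epithelial and mesenchymal cells, went from 1609 to 2400, a difference of 0.58, but another probe set read 840.5 and 811.0 (-0.05). Fermt3 (kindlin-3), the blood cell form, read 5411 and 6222 (0.20), and its 4 probe sets lay between -0.0016 and 0.34. Tln1 (talin-1), the main activator of integrins, read 1479 and 1762, a difference of 0.25, with 0.29 and -0.22 on its other probe sets. Tln2 (talin-2) read 180.0 and 231.4, a difference of 0.36. Vcl (vinculin), which couples talin to actin, read 2103 and 2630, a difference of 0.32, and 0.16 on its second probe set. The promoters of Vcl and Fermt2 printed above share a CArG box, and their differences of 0.32 and 0.58 lay within the middle 95% for genes of mean signal 1000 to 5000, which ran from -0.70 to 0.75.

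**Figure D3:**
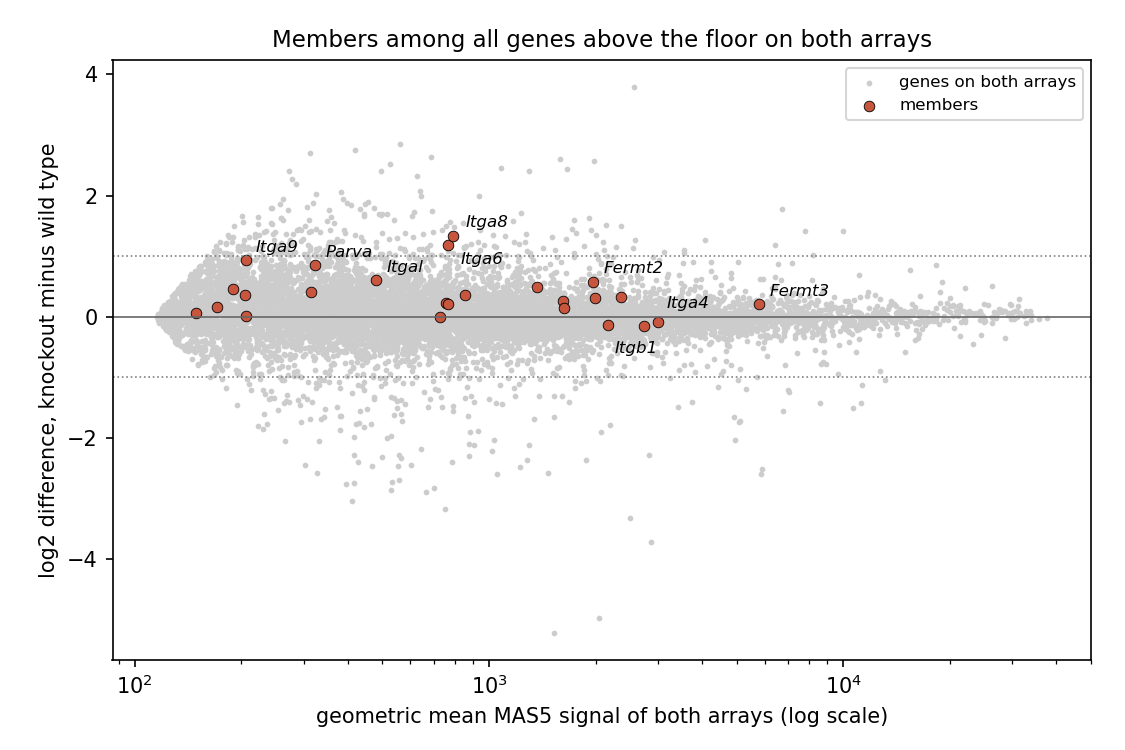
Log2 difference (knockout minus wild type) against the geometric mean MAS5 signal of both arrays (log axis) for 10221 genes above the floor on both arrays (grey), with the 25 integrin and focal adhesion genes among them in red and dotted lines at 2-fold. Itga8 and Itga6 lie above the upper line, and most of the others sit between 0 and 1.

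Set against the spread of all genes, few of the adhesion genes stood out singly on the probe sets that describe them. Of the 25 measured on both arrays, 2 (Itga8 and Itga6) lay outside the middle 95% of differences for genes of like signal. By definition this range holds 95% of all such genes. Of the 51 probe sets of adhesion genes measured on both arrays, 7 lay outside the corresponding range of probe sets: both of Itga6, both of Itga8 and 3 of Itga4. Where a gene had more than 1 probe set measured on both arrays, all agreed in direction in 10 of 16 listed genes, against 52.5% of 4593 genes.

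Other genes of integrin signalling, from a list of 59, were also mostly above 0. Of 51 measured, 3 were called higher and 0 lower, 42 were above 0 and the median was 0.28. Over all measured genes 3.27% were called higher and 53.8% were above 0. Of the 51, 3 were below the floor in wild type, Ptk2b among them, which fixed their direction. The focal adhesion kinase relative Ptk2b read 103.3 and 261.0 (at least 2.32-fold higher), and its other probe set had a bound of 0.56. The actin crosslinker Flna (filamin A) went from 645.9 to 1383 (2.14-fold), the actin regulator Enah from 311.0 to 636.0 (2.04-fold), and the kinase Src from 224.0 to 422.5 (1.89-fold). On the probe sets that describe each gene, differences of integrin ligands ran from -1.91 to 2.53, against -0.16 to 1.34 in the adhesion core. Other probe sets of Itga4 in the core went down to -2.93. Of 44 measured ligands, 6 were below the floor in wild type, which fixed their direction. Of the 44, 10 were called higher and 3 lower, and the median was 0.46. The higher ones were led by Lamb1, Col1a1 and Col6a1 (3.83-fold), and the lower ones, Igfbp1 (3.75-fold), Fgb and Fga, are products of hepatocytes. Endothelial markers, from cells that carry many of these integrins, were measured in 25 of 25 cases, with 0 called and a median of 0.38; Cd34 (0.89), Sox18 (0.69), Ramp2 (0.60) and Plvap (0.57) had the largest differences.

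**Figure D4:**
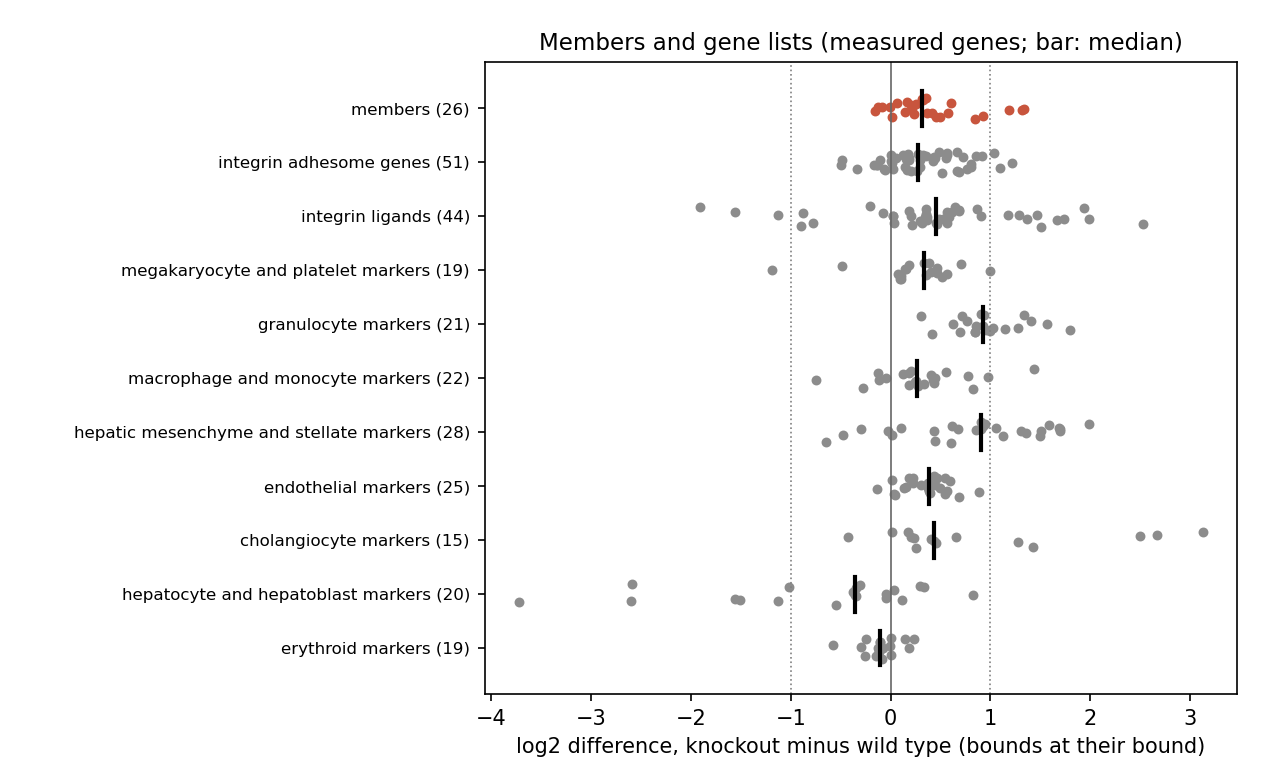
Log2 difference (knockout minus wild type) of each measured gene of the adhesion core (red) and of 10 gene lists (grey), with the number of measured genes in brackets and black bars at the medians; bounds are drawn at their bound. The adhesion core (median 0.32) lies near the macrophage (0.26), other integrin signalling (0.28), megakaryocyte (0.33) and endothelial (0.38) lists. The cholangiocyte (0.43) and ligand (0.46) lists lie somewhat higher, and the mesenchymal (0.91) and granulocyte (0.93) lists higher still. The erythroid (-0.11) and hepatocyte (-0.35) lists lie below it.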

How the data were processed

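Single-colour Affymetrix arrays, 1 per genotype, were analysed from the deposited value table. The authors deposited intensity values that the submitters' processing notes name as MAS5 (no version stated). Both arrays had a 2% trimmed mean of 500.0, so values were used as deposited. Of 45101 probe sets, 64 were controls. The platform annotation gave 34945 others 1 symbol, 932 several and 9160 none, and only the first were used. The RefSeq table held the gene identifier of 34741 of these. The floor was set at the 50th percentile, and genes were counted at 2-fold. The gene lists (15) and the listed genes were chosen with earlier results of these data known, so a pattern seen before gains no independent support. Named genes were all listed genes, Prox1, up to 4 genes per list with the largest difference, and known ligands or partners. Some were named outside this rule after their values were seen: Des, Cd3e, Pelo and Cerkl. The number of arrays limits the precision. Scripts ran in Python 3.11.15 with pandas 2.3.3, numpy 2.4.6 and, for lowess, statsmodels 0.14.6, and the counting was tested on simulated data. Alternatives are given in the closing section.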

Additional observations from a re-analysis of the deposited data

How the results depend on the processing

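The count of adhesion genes at least 2-fold higher was 3, with 2 when the floor was the 60th percentile or a gene was the median of its probe sets (both without Itgb3; 2.53% and 2.76% of all genes); it was 6 at 1.5-fold (9.87% of all genes) and 0 at 3-fold (0.869%). The count at least 2-fold lower was 0, but 1 as the median over probe sets (Itga4; 2.02% of all genes) and 1 with no floor and no filter (Itgb8, at signals far below the floor; 8.08% of all genes). With no floor 3 of 34 adhesion genes were higher, a smaller share than the 12.98% of all genes. The median log2 difference over measured adhesion genes ranged from 0.26 to 0.32 over the 7 alternatives that give it. Quantile normalization left 20 of 26 genes above 0, as did lowess correction. Of 179 values of single genes under the alternatives, 6 (of 4 genes: Fermt2, Itga4, Itga9, Itgb3) moved by more than 0.29, the robust SD over genes measured on both arrays, and 6 (of Itga5, Itgb5, Itgb7 and Lims1) had the other sign; the Fermt2 value was 0.26 as the median over probe sets. The cause was not tested. No paired analysis was possible because each genotype has 1 array. Signal limits the dim genes, of which 8 listed ones were below the floor on both arrays.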
